A study of Mus musculus with 6 samples.

Results

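The 32 genes described here encode proteins that act in the G2 phase and in mitosis: cyclins and kinases, kinetochore, spindle and midzone proteins, and factors of mitotic exit. They were chosen by symbol from the deposited count table, and all 32 were found among its 17523 entries and passed the filter on low counts. The libraries were made from FACS-sorted marrow cells of C57BL/6 mice, which the series calls hematopoietic stem cells (HSCs), 3 from wild type (WT) and 3 from NHD13 mutants. NHD13 stands for NUP98-HOXD13, in which part of a nuclear pore protein is joined to a homeobox factor, and mice that express it are used to study myelodysplastic syndrome. No treatment is named for either group. The sources used here do not name the promoter of the fusion, the age or sex of the mice, the sort markers, or whether each library came from its own animal. The tests can then speak only for the spread among these 6 libraries, and how much of it is technical is not known. The sex-linked RNA given below shows that the NHD13 libraries were not all repeats of the same RNA sample.

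CDK1 bound to cyclins A and B starts mitosis, helped by the phosphatase CDC25C and the kinase PLK1. Kinetochores then attach chromosomes to the spindle, a checkpoint holds back anaphase until this is done, and the anaphase-promoting complex ends mitosis by marking cyclin B for destruction. Genes of this kind are transcribed mainly in G2 and mitosis under MuvB, B-MYB and FOXM1, so their RNA in a mixed population is widely read as a sign of dividing cells. In bulk RNA, fewer cells of a type and less RNA per cell cannot be told apart.

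Promoters of such genes are known for CCAAT boxes and for the cell cycle genes homology region (CHR), the element that MuvB binds. RefSeq promoters (build GRCm38.p6) were matched by symbol for 26 of the 32 genes and searched on both strands from 250 bases before to 30 bases after the start. The CHR letters TTTGAA or TTCGAA were present for 17 genes (65.4%), against 20.9% of all 27025 RefSeq genes with a promoter, 18.8% of the S-phase genes described further on and 61.5% of the other mitotic genes. The letters CCAAT were present for 21 genes (80.8%), against 39.7%, 65.6% and 69.2% of the same sets. Both occurred for 16 genes (61.5%), against 7.97%, 15.6% and 46.2%. A match describes the letters and is not a mapped site, and CHR and CCAAT letters did not overlap in the windows printed here. The promoters printed here belong to Plk1, which rose, Kif23, which fell, and Ccnb2 and Top2a, which did not pass the test. Capitals mark CHR and CCAAT letters on either strand (TTCAAA and ATTGG are the reverse complements of TTTGAA and CCAAT).
Plk1 (chr7:122159185-122159464, plus strand): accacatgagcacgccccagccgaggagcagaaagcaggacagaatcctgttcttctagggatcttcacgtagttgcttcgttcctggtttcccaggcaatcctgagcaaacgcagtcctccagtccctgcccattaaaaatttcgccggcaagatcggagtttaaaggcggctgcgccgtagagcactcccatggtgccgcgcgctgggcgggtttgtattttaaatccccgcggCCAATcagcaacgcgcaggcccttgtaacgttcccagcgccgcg
Kif23 (chr9:61946770-61947049, minus strand): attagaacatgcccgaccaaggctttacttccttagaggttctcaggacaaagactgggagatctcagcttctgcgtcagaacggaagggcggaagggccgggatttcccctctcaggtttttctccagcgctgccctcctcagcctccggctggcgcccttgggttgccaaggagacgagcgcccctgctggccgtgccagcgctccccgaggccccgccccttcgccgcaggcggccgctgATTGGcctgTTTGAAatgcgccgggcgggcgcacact
Ccnb2 (chr9:70421525-70421804, minus strand): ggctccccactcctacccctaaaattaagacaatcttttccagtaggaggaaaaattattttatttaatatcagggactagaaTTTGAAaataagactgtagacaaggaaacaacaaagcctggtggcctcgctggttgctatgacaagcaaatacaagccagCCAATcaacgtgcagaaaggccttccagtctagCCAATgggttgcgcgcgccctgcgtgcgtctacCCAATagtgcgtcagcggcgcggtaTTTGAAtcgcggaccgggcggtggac
Top2a (chr11:99024160-99024439, minus strand): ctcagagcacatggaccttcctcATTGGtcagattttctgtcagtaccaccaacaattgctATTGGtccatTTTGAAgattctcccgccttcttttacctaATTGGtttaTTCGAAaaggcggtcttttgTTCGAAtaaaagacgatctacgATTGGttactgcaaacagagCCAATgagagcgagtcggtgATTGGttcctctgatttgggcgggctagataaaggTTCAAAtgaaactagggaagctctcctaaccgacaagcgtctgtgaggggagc
The Plk1 window held 1 CCAAT and no CHR letters, and the Kif23 window held 1 of each. The Ccnb2 window held 2 CHR and 3 CCAAT matches, and that of Top2a held 4 and 6. The Ccnb1 window, not printed, held 0 CHR and 2 CCAAT matches, and no promoter was matched for Ccna2. Whether the number of matches goes with the change of RNA was not tested.

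The libraries held 12541538 to 14388772 counts. The fusion had its own row, with 0 counts in each WT library and 185, 179 and 167 in NHD13 replicates 1 to 3. NHD13 replicate 1 stood apart: its Spearman correlation over tested genes was 0.989 and 0.988 with the other NHD13 libraries and 0.986 with WT replicate 1, while NHD13 replicates 2 and 3 reached 0.997. By chi-square per degree of freedom between counts, it was nearer to WT replicate 1 (18.5) than to NHD13 replicates 2 (25.6) and 3 (25.3). That measure was 39.1 and 32.1 against WT replicates 2 and 3, and 3.23 between NHD13 replicates 2 and 3. Libraries also differed in sex-linked RNA. Each WT library and NHD13 replicate 3 held both Xist and Y-linked RNA, as a pool of both sexes would. Whether libraries were pools is not given in the sources used here. Xist was at 463, 1020 and 1078 CPM in WT replicates 1 to 3 and 2.55, 1.95 and 683 CPM in NHD13 replicates 1 to 3, and 4 Y-linked genes summed to 192, 109.9 and 113 CPM in WT replicates 1 to 3 and 252, 279.8 and 176 CPM in NHD13 replicates 1 to 3. Stem and progenitor markers summed to 659 CPM ± 24.9 in WT and 393 CPM ± 37.3 in NHD13 (SD, n = 3 each). They did not all move alike. At an edgeR adjusted p under 0.05, 8 of 12 tested were lower in NHD13 and 1 was higher (Mecom, log2 2.73). These made 75%, beside 30.3% of all tested genes. Markers of mature neutrophils summed to 46223 CPM ± 9725 in WT and 29465 CPM ± 4749 in NHD13. The libraries thus held abundant RNA of maturing cells beside that of the labelled cell type. Of the 14 stem and progenitor markers listed, Procr and Fgd5 had at most 7 counts in a library. Other markers of that list had more, such as Kit (3092 to 3499), Cd34 (447 to 2494) and Hlf (32 to 207).

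The mitotic genes were strongly expressed in both groups and differed little between them. Their summed level was 7858, 7205 and 7326 CPM in WT replicates 1 to 3 and 7751, 8343 and 8042 CPM in NHD13 replicates 1 to 3. The means were 7463 CPM ± 348 in WT and 8045 CPM ± 296 in NHD13 (SD, n = 3 each), a ratio of 1.08. WT replicate 1 lay above NHD13 replicate 1, so the groups overlapped. Single genes had 302 to 28580 counts in a library. Scaled per kilobase of annotated exon, the WT level was highest for Cks2, a small CDK1-binding protein (254 ± 17.7 CPM per kb, SD, n = 3), Top2a, the topoisomerase that untangles chromosomes (213 ± 10.1), and Mki67, the gene of the Ki-67 proliferation antigen (169 ± 6.8). It was lowest for Cdc25c (11.8 ± 0.974 CPM per kb) and the kinetochore gene Cenpf (15.6 ± 0.737). Cks2 has 3 annotated pseudogene copies of at least 98.3% identity over 240 bases, so its counts are uncertain where reads were shared.

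In edgeR's quasi-likelihood test with Benjamini-Hochberg adjustment over all 12013 tested genes, Ccnb1, Plk1 and Ccna2 rose in NHD13 and Kif23 fell, while 28 genes did not pass an adjusted p of 0.05. This made 3 of 32 higher, beside 15.0% of all tested genes, and 1 lower, beside 15.3%. In either direction 4 of 32 passed (12.5%), beside 30.3% of all tested genes. At an unadjusted p under 0.05 it was 12 of 32 (37.5%, 11 higher and 1 lower), beside 43.1% in either direction. Of all 12013 tested genes, 2625 were higher and 2552 lower at that p. The log2 change was above 0 for 25 genes and below 0 for 7, with a median of 0.13, against 0.00 over all tested genes.

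The differences were small and closely bounded. None of the 32 differed by 1.5-fold or more, beside 17.3% of all tested genes. The 95% interval of the change lay within 1.5-fold either way for 31 of the 32, beside 59.2% of all tested genes and 79.9% of the 6828 tested genes within the same range of average level. Cdc25c was the exception. The groups did not overlap for 10 of the 32 (31.2%), with NHD13 above WT for 8 (beside 23.5% of all tested genes) and below for 2 (beside 22.6%), together beside 46.1%.

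**Figure D1:**
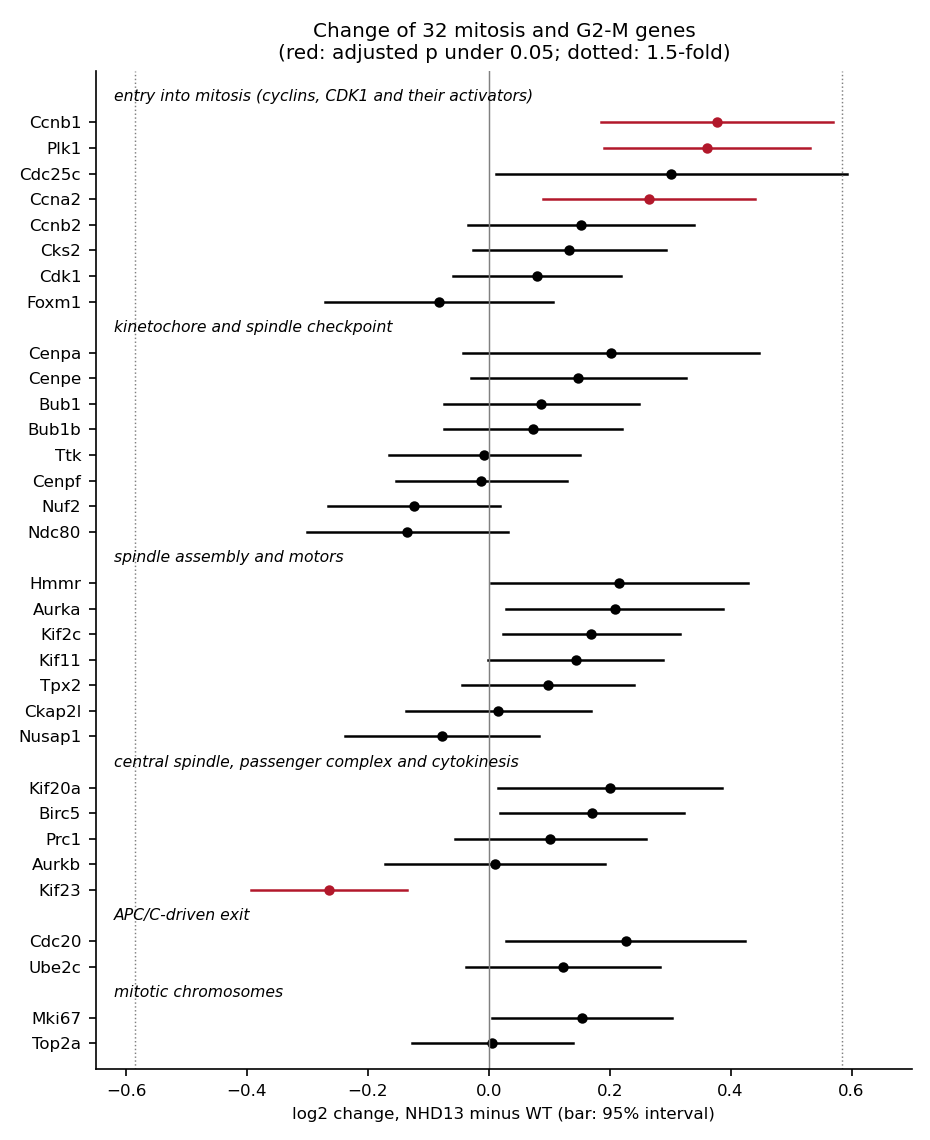
Log2 change of each of the 32 genes, NHD13 minus WT, with its 95% interval from the edgeR fit on 3 libraries per group, in functional groups; dotted lines mark 1.5-fold. Ccnb1 (0.38), Plk1 (0.36) and Ccna2 (0.26) are the genes that rose, Kif23 (-0.26) is the gene that fell, and the interval of Cdc25c alone passes a dotted line.

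Of the 8 genes of entry into mitosis, 3 rose and 0 fell (beside 15.0% of all tested genes called higher). At an unadjusted p under 0.05, 4 were higher and 0 lower (50%, beside 43.1% in either direction and 2625 of 12013 tested genes higher). Ccnb1 (mm10 chromosome 13, 100778650 to 100786570, minus strand) encodes cyclin B1, the main mitotic partner of CDK1. It was at 199, 172 and 177 CPM in WT replicates 1 to 3 and 215, 249.7 and 246 CPM in NHD13 replicates 1 to 3. Every NHD13 library was above every WT library, the replicate 1 libraries being the nearest to each other. The rise was 1.3-fold (log2 0.38, 95% interval 0.18 to 0.57, edgeR adjusted p = 0.012). The call was kept without NHD13 replicate 1 (adjusted p = 0.000142) and lost without WT replicate 2 (0.059), WT replicate 3 (0.0621) or NHD13 replicate 2 (0.0552), where the log2 change was 0.33, 0.35 and 0.32. Ccnb1 has 4 annotated pseudogene copies of at least 96.6% identity over 383 to 1294 bases, 0 of them with an entry in the table, so its counts are uncertain to the extent that reads were shared.

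Plk1 (mm10 chromosome 7, 122159439 to 122169873, plus strand) encodes polo-like kinase 1, which acts from mitotic entry to cytokinesis. It was at 121, 114 and 107 CPM in WT replicates 1 to 3 and 142, 157 and 141 CPM in NHD13 replicates 1 to 3. The groups did not overlap. The rise was 1.28-fold (log2 0.36, 95% interval 0.19 to 0.53, edgeR adjusted p = 0.00904), and among the single libraries left out the call was lost only without NHD13 replicate 2 (log2 0.30, adjusted p = 0.0503). Plk1 shares 158 bases of exon sequence with Gm44985 on the other strand, so its counts are uncertain to that extent.

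Ccna2 (mm10 chromosome 3, 36564865 to 36572150, minus strand) encodes cyclin A2, which acts in S phase and G2. It was at 278, 265 and 281 CPM in WT replicates 1 to 3 and 296, 356 and 337 CPM in NHD13 replicates 1 to 3. NHD13 replicate 1 was closest to WT. The rise was 1.2-fold (log2 0.26, 95% interval 0.09 to 0.44, edgeR adjusted p = 0.0318). The call, though not the direction, was lost without WT replicate 1, 2 or 3 or NHD13 replicate 2 or 3 (log2 0.19 to 0.28, adjusted p 0.0792 to 0.138) and with upper-quartile scaling (log2 0.22, adjusted p = 0.0545), and it was kept without NHD13 replicate 1 (log2 0.34, adjusted p = 0.000267). Ccna2 shares exon sequence with Exosc9 on the other strand. Whether the counting used strand is not given in the sources used here, and without it reads of the pair cannot be told apart. Exosc9 had 45.7 CPM ± 3.46 in WT and 51.9 CPM ± 2.95 in NHD13 (SD, n = 3 each).

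The remaining genes of mitotic entry did not pass. Ccnb2, the other mitotic B-type cyclin, was at 146, 148 and 146 CPM in WT replicates 1 to 3 and 143, 177 and 168 CPM in NHD13 replicates 1 to 3 (log2 0.15, 95% interval -0.04 to 0.34). NHD13 replicate 1 lay below all WT libraries and NHD13 replicates 2 and 3 above them. Cdk1, the kinase itself, was at 199, 193 and 185 CPM in WT replicates 1 to 3 and 198, 211 and 200.1 CPM in NHD13 replicates 1 to 3 (log2 0.08, interval -0.06 to 0.22). Cdc25c had 23 CPM ± 1.9 in WT and 28.4 CPM ± 4.41 in NHD13 (SD, n = 3 each; log2 0.30, interval 0.01 to 0.59, edgeR adjusted p = 0.104). The intervals were -0.03 to 0.29 for Cks2 (log2 0.13) and -0.27 to 0.11 for Foxm1 (log2 -0.08), the transcription factor gene of this programme.

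Of the 8 kinetochore and checkpoint genes, 0 passed in edgeR, DESeq2 or limma-voom, and 0 had an unadjusted p under 0.05 in edgeR. Among all tested genes, 30.3% passed in edgeR and 43.1% had an unadjusted p under 0.05. Their log2 changes ran from -0.13 (Ndc80) to 0.20 (Cenpa, the centromeric histone). Ndc80 and Nuf2 pair in the complex that grips microtubules. Nuf2 was at 135, 128 and 135 CPM in WT replicates 1 to 3 and 117, 126 and 121 CPM in NHD13 replicates 1 to 3, with every NHD13 library below every WT library (log2 -0.12, interval -0.27 to 0.02, edgeR adjusted p = 0.162). The complex's other subunits were at log2 0.08 (Spc24) and -0.05 (Spc25). The checkpoint kinase genes Bub1 (0.09), Bub1b (0.07) and Ttk (-0.01) had small log2 changes, as did the checkpoint genes Bub3 (0.08) and Mad2l1 (0.03). Those of the large kinetochore proteins were 0.15 (Cenpe, a motor) and -0.01 (Cenpf).

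Of the 7 spindle assembly genes, 0 passed in edgeR, DESeq2 or limma-voom, beside 30.3% of all tested genes in edgeR. At an unadjusted p under 0.05, 3 were higher (Aurka, Kif2c and Hmmr). These made 42.9%, beside 43.1% of all tested genes in either direction and 2625 of 12013 higher. Aurka, the kinase of the spindle poles, was at 96.8, 82.7 and 85.6 CPM in WT replicates 1 to 3 and 106, 103 and 97.4 CPM in NHD13 replicates 1 to 3. The groups did not overlap, and NHD13 replicate 3 was only just above WT replicate 1 (log2 0.21, interval 0.03 to 0.39, edgeR adjusted p = 0.0761). Leaving out WT replicate 1 brought Aurka past the threshold (adjusted p = 0.0491). Kif11, the motor that pushes the poles apart, had 379.6 CPM ± 20.7 in WT and 419 CPM ± 13.5 in NHD13 (SD, n = 3 each; log2 0.14, edgeR adjusted p = 0.117). The log2 change was 0.17 for Kif2c, a microtubule-depolymerising kinesin, 0.22 for Hmmr, a spindle protein, and 0.10 for Tpx2, the activator of Aurora A. It was -0.08 for Nusap1 and 0.02 for Ckap2l, both spindle-associated.

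Kif23 (mm10 chromosome 9, 61915905 to 61946774, minus strand) encodes the motor subunit of centralspindlin, which bundles midzone microtubules and is needed for cytokinesis. It was at 145, 142 and 144 CPM in WT replicates 1 to 3 and 119.6, 121 and 119 CPM in NHD13 replicates 1 to 3. Libraries of a group lay within a few CPM of each other, and every NHD13 library, replicate 1 included, was below every WT library. The level fell 1.2-fold (log2 -0.26, 95% interval -0.39 to -0.14, edgeR adjusted p = 0.01), and the call was kept without each single library (adjusted p 0.00217 to 0.047). Its centralspindlin partner Racgap1 was at 202, 209 and 196 CPM in WT replicates 1 to 3 and 186, 186 and 177 CPM in NHD13 replicates 1 to 3, also without overlap, but did not pass (log2 -0.15, interval -0.28 to -0.01, edgeR adjusted p = 0.0916).

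The other central spindle and passenger complex genes had log2 changes above 0. Kif20a, another midzone kinesin, was at 132, 127 and 116 CPM in WT replicates 1 to 3 and 131, 155 and 145 CPM in NHD13 replicates 1 to 3 (log2 0.20, interval 0.02 to 0.39, edgeR adjusted p = 0.0937). It shares exon sequence with Cdc23 on the other strand, so its counts are uncertain. Prc1, which crosslinks midzone microtubules, likewise shares 670 bases with Rccd1 on the other strand. Its log2 change was 0.10. In the chromosomal passenger complex it was 0.17 for Birc5 (survivin), 0.01 for the kinase gene Aurkb, 0.09 for Incenp and 0.10 for Cdca8, none past the threshold.

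Cdc20, which activates the anaphase-promoting complex in mitosis, was at 147, 145 and 132 CPM in WT replicates 1 to 3 and 149, 183 and 164 CPM in NHD13 replicates 1 to 3. NHD13 replicate 1 was only just above WT replicate 1 (log2 0.23, interval 0.03 to 0.42, edgeR adjusted p = 0.0797). Ube2c, the ubiquitin-conjugating enzyme of that complex, had a log2 change of 0.12. Mki67 was at 1778, 1648 and 1677 CPM in WT replicates 1 to 3 and 1769, 1988 and 1921 CPM in NHD13 replicates 1 to 3 (log2 0.15, interval 0.01 to 0.30, edgeR adjusted p = 0.106), with overlapping groups. Top2a had 1110.2 CPM ± 53 in WT and 1114 CPM ± 7.22 in NHD13 (SD, n = 3 each), a log2 change of 0.01 with an interval of -0.13 to 0.14.

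**Figure D2:**
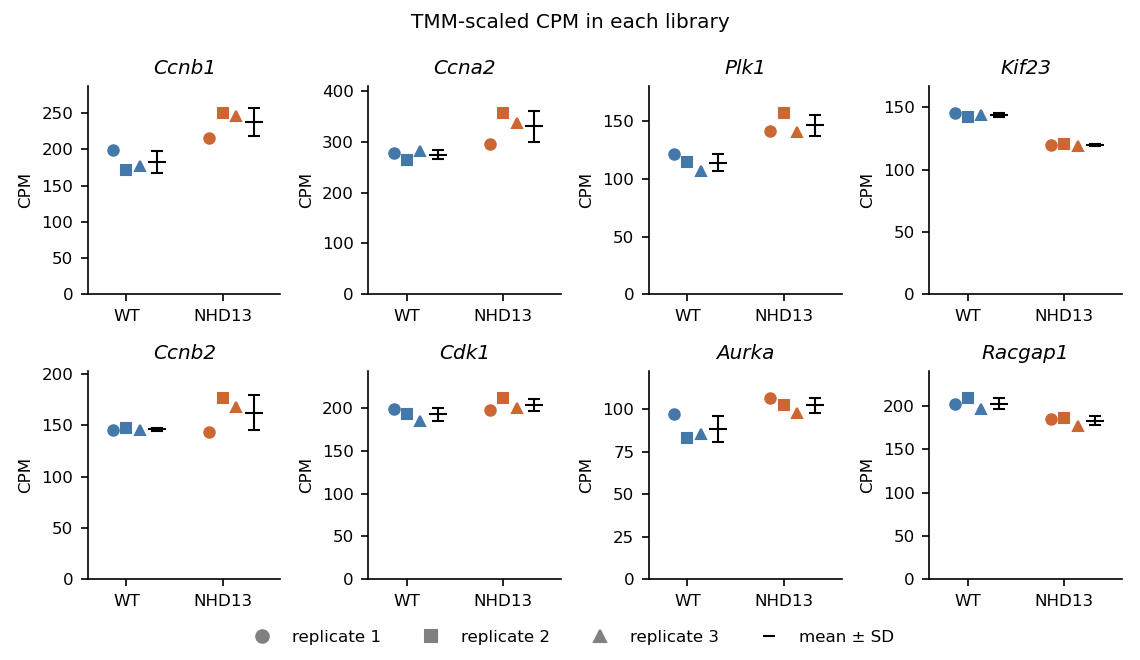
TMM-scaled CPM of 8 genes in the 6 libraries, 1 marker shape per replicate number, with the mean ± SD of each group in black and axes from 0. Kif23 and Racgap1 are lower in all 3 NHD13 libraries, Ccnb1, Ccna2, Plk1 and Aurka are higher in all 3, and the groups overlap for Ccnb2 and Cdk1.

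Ratios of counts within a library need no scaling. The pairs given here were chosen after their values had been seen. Ccnb1 to Ccnb2 was 1.37, 1.16 and 1.21 in WT replicates 1 to 3 and 1.5, 1.41 and 1.47 in NHD13 replicates 1 to 3. Aurka to Aurkb was 0.621, 0.622 and 0.645 in WT replicates 1 to 3 and 0.726, 0.717 and 0.719 in NHD13 replicates 1 to 3. Plk1 to Cdk1 was 0.609, 0.594 and 0.578 in WT replicates 1 to 3 and 0.716, 0.743 and 0.704 in NHD13 replicates 1 to 3. In these pairs every NHD13 library, replicate 1 included, was above every WT library. Kif23 to Kif20a was 1.1, 1.12 and 1.23 in WT replicates 1 to 3 and 0.91, 0.779 and 0.817 in NHD13 replicates 1 to 3, and Kif23 to Racgap1 was 0.719, 0.681 and 0.731 in WT replicates 1 to 3 and 0.645, 0.648 and 0.668 in NHD13 replicates 1 to 3, both lower in every NHD13 library. Ndc80 to Nuf2, partners in one complex, was 0.504, 0.57 and 0.523 in WT replicates 1 to 3 and 0.517, 0.543 and 0.522 in NHD13 replicates 1 to 3 and overlapped.

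The number of genes past the threshold moved with single libraries. WT replicate 1 was the highest WT library for 27 of the 32 genes, NHD13 replicate 2 the highest NHD13 library for 24 and NHD13 replicate 1 the lowest for 17. The median over genes of the log2 level relative to the WT mean was 0.08, -0.05 and -0.04 in WT replicates 1 to 3 and 0.06, 0.16 and 0.10 in NHD13 replicates 1 to 3. Without NHD13 replicate 1, 12 higher and 1 lower passed (40.6%, beside 48.7% of all genes tested, in either direction). Of all 12269 genes tested there, 3012 were higher and 2966 lower. Birc5, Ccnb2, Cdc20, Cdc25c, Cenpa, Hmmr, Kif20a, Kif2c and Mki67 joined the 3 that rose. Without replicate 1 of both groups, 19 higher and 1 lower passed (62.5%, beside 53.3% in either direction). Of all 12176 genes tested in that fit, 3244 were higher and 3245 lower.

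With other libraries left out the numbers were lower or similar. Without WT replicate 1 there were 4 higher and 1 lower (beside 23.1% of all genes, in either direction here and below). Without WT replicate 2, and likewise without WT replicate 3, there were 1 higher and 1 lower (beside 14.7% and 14.7%). Without NHD13 replicate 2 there were 0 higher and 1 lower (15.0%), and 2 higher and 1 lower without NHD13 replicate 3 (15.9%). Kif23 was the 1 lower gene each time. With all libraries, DESeq2 (29.8% of all genes), limma-voom (30.1%), total counts (30.1%), no filter (21.6%) and a minimum average of 5 CPM (29.2%) each called the 4 genes of the main test. Upper-quartile scaling called 2 higher and 1 lower (29.6%), and a term for the replicate number 4 higher and 1 lower (35.3%). When the share of Y-linked counts entered as a covariate, 0 higher and 0 lower passed, beside 2.38% of all genes. Y-linked RNA itself differed by group (138 CPM ± 46.5 in WT and 236 CPM ± 53.9 in NHD13, SD, n = 3 each). Covariate and group thus cannot be fully told apart. The standard error rose for each of the 4 genes of the main test, for Kif23 from 0.056 to 0.104. Under that covariate the edgeR adjusted p was 0.234 for Ccnb1 (log2 0.29), 0.306 for Ccna2 (log2 0.24), 0.272 for Plk1 (log2 0.23) and 0.157 for Kif23 (log2 -0.29).

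**Figure D3:**
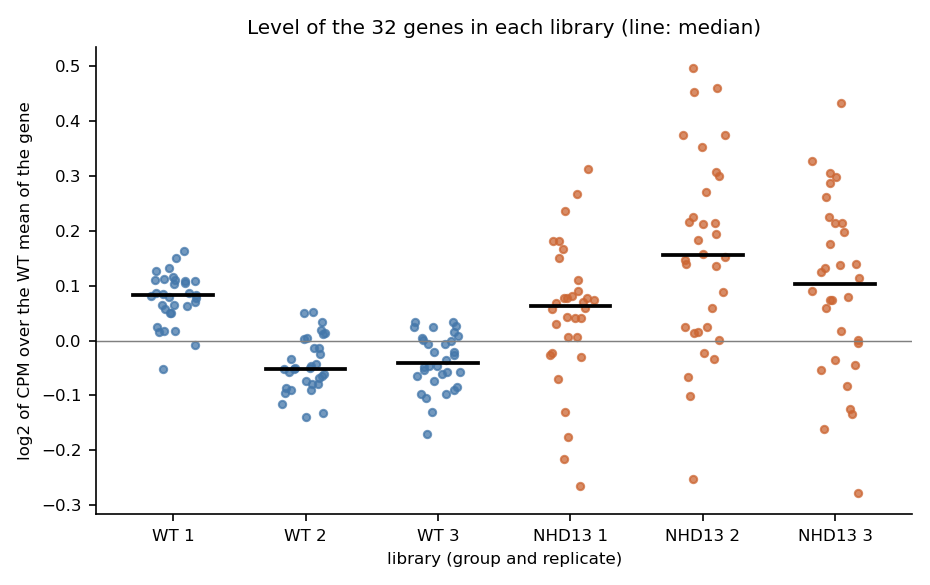
Log2 of the CPM of each of the 32 genes over its WT mean, 1 point per gene, in each library, with the library's median as a line. The medians of WT replicate 1 (0.08) and NHD13 replicate 1 (0.06) lie close together, and that of NHD13 replicate 2 (0.16) is the highest.

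**Figure D4:**
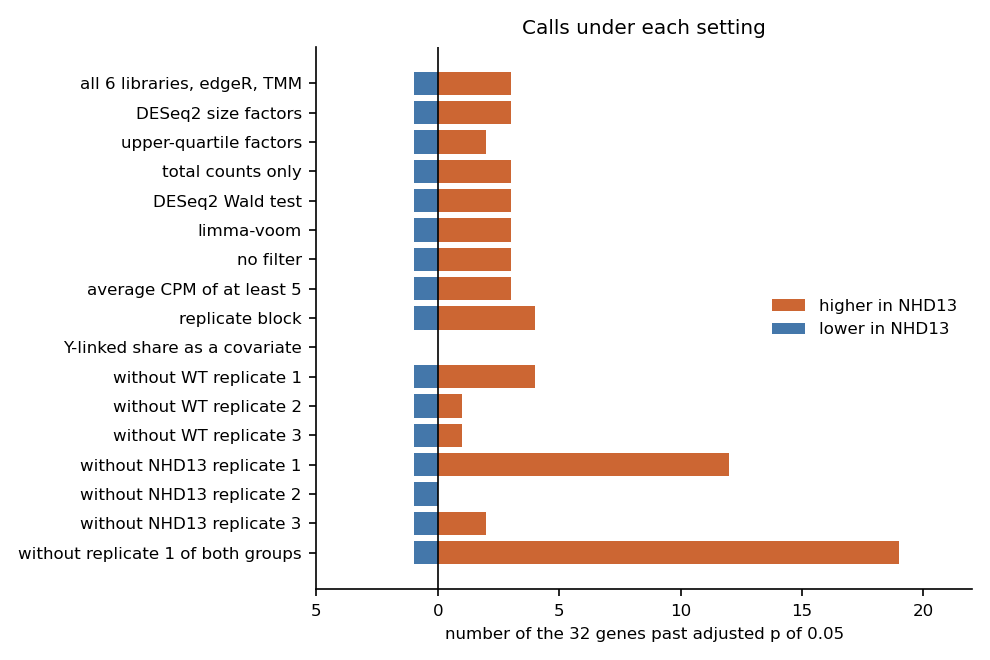
Number of the 32 genes past an adjusted p of 0.05 in each direction, for each choice of libraries, scaling, filter, covariate or test. The number higher in NHD13 runs from 0 to 19, and the number lower is 1 in each setting shown except under the Y-linked covariate, where it is 0.

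Markers of other dividing marrow cells moved between the libraries as well. Of 10 tested erythroid markers, 7 rose and 0 fell in edgeR (70%, beside 30.3% of all tested genes in either direction and 15.0% higher). At an unadjusted p under 0.05, 9 were higher (90%, beside 43.1% in either direction). The list summed to 2203, 2229 and 2514 CPM in WT replicates 1 to 3 and 2862, 4861 and 4650.4 CPM in NHD13 replicates 1 to 3. The globin gene Hbb-b1 had 0 to 4 counts in a library. Only 11 of the 16 erythroid markers listed had an entry in the table. The other globin genes of the list (Hba-a1, Hba-a2, Hbb-b2, Hbb-bs and Hbb-bt) had none, so globin RNA as a whole cannot be read here. Granule genes of neutrophil precursors summed to 17593, 13823 and 14335 CPM in WT replicates 1 to 3 and 17663, 9821 and 9874 CPM in NHD13 replicates 1 to 3, highest in the replicate 1 library of each group. Of 9 such genes 0 passed in edgeR, beside 30.3% of all tested genes. At an unadjusted p under 0.05, 1 was lower (11.1%, beside 43.1% in either direction). No marker of these lists with an entry was at 0 in all libraries. Summed markers of monocytes and macrophages were lower in every NHD13 library (867 to 1346 CPM) than in WT (2012 to 2325 CPM). The part of these cells in the levels of the mitotic genes was not tested.

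Beyond the 32, the rest of the mitotic machinery was read from other lists. Of 69 other mitotic genes 11 rose and 2 fell (18.8%, beside 30.3% of all tested genes), with a median log2 change of 0.08. The lowest p among those that rose belonged to the kinetochore genes Zwint (1.37-fold, edgeR adjusted p = 0.00962) and Casc5 (1.3-fold), the separase gene Espl1 (1.27-fold) and the centrosomal kinase gene Nek2 (1.27-fold). Fam64a fell 1.66-fold, from 30.9 CPM ± 2.15 in WT to 18.6 CPM ± 2.66 in NHD13 (SD, n = 3 each, edgeR adjusted p = 0.00395). Cep55, which acts at the midbody in late cytokinesis, fell 1.39-fold (edgeR adjusted p = 0.0322). The number that fell was 4 without NHD13 replicate 1 and 1 without any other single library. Over all genes it was 2966 and 957 to 1615. The number that rose was 24 without NHD13 replicate 1, beside 3012 of all 12269 genes tested there. It was 1 to 5 without any other single library, 4 with upper-quartile scaling and 7 with the 5 CPM filter. The number higher over all genes was 760 to 1208, 1427 of 12013 and 1374 of 9859 in the same fits, against 1799 in the main test.

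Of 8 condensin genes, which compact chromosomes, 1 rose (Smc2, 1.17-fold, edgeR adjusted p = 0.0351) and 0 fell, or 12.5%, beside 30.3% of all tested genes. Without NHD13 replicate 1, 5 condensin genes rose, beside 3012 of all 12269 genes tested there. None rose without any other single library, with upper-quartile scaling or with the 5 CPM filter. Over all genes, 760 to 1208, 1427 and 1374 were higher in those fits. Of 17 genes of the anaphase-promoting complex list, Anapc1 (1.23-fold), Anapc5 (1.18-fold) and Cdc23 (1.16-fold) rose, and Anapc13 fell 1.2-fold. These 4 made 23.5%, beside 30.3% of all tested genes. Cdc23 (edgeR adjusted p = 0.0472) shares exon sequence with Kif20a on the other strand, so its counts are uncertain as well. The number of genes of this list that rose was 8 without NHD13 replicate 1 and 1 to 2 without another library. Over all genes it was 3012 and 760 to 1208. The fall of Anapc13 was kept without NHD13 replicate 1 and lost without any other single library, in DESeq2, with no filter and with the replicate block.

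Regulators of the programme were called about as often as genes of the table as a whole. Of 20 DREAM, MuvB and E2F genes, 5 rose and 1 fell, or 30%, beside 30.3% of all tested genes. E2f4, a DREAM subunit, rose 1.84-fold, from 154 CPM ± 3.72 in WT to 283 CPM ± 55.4 in NHD13 (SD, n = 3 each, edgeR adjusted p = 0.00262). Mybl2, which encodes B-MYB, rose 1.29-fold (adjusted p = 0.00431), E2f6 1.35-fold and E2f5 1.69-fold. The repressor gene E2f7 fell 1.32-fold. With 1 library left out, 3 to 7 of these genes were higher and 0 to 2 lower, with the fewest lower without WT replicate 2 or 3. Over the table, fits with 1 library left out had 760 to 3012 genes higher and 957 to 2966 lower. Of 10 tested CDK inhibitor and D cyclin genes, Ccnd1 (cyclin D1) rose 1.79-fold, and the inhibitor genes Cdkn2c (1.72-fold), Cdkn1b (1.27-fold) and Cdkn2d (1.33-fold) fell. These 4 made 40%, beside 30.3% of all tested genes. The number that fell was 2 to 5 with 1 library left out. Under the Y-linked covariate, 1 gene of that list was higher in edgeR, where 2.38% of all genes passed. Of the other mitotic, condensin, anaphase-promoting complex, DREAM, MuvB and E2F, and S-phase genes, 0 passed.

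Genes of S phase, the stage before G2, were set beside the mitotic genes. Of 40 tested, 12 rose and 0 fell in edgeR (30%, beside 30.3% of all tested genes called in either direction and 15.0% called higher). At an unadjusted p under 0.05 there were 22 and 0 (55%, beside 43.1% in either direction and 2625 of 12013 tested genes higher). By adjusted p, 14 rose and 0 fell in DESeq2, and 11 and 0 in limma-voom. Over all 12013 tested genes, 1744 were higher and 1832 lower in DESeq2, and 1731 and 1882 in limma-voom. The median log2 change of the S-phase genes was 0.24, beside 0.13 for the 32, and that difference was not tested. The lowest p belonged to Ccne1 (cyclin E1, 1.82-fold, edgeR adjusted p = 0.00851), then Cdt1 (1.35-fold), Cdc6 (1.48-fold) and Orc1 (1.51-fold), which license replication origins. The number that rose was 32 without NHD13 replicate 1, 1 without NHD13 replicate 2 and 2 to 5 without another library. Over all genes it was 3012 of 12269, 760 of 12207 and 806 to 1208 in the same fits. The summed counts of the 32 over those of the S-phase genes were 1.03, 0.883 and 0.87 in WT replicates 1 to 3 and 0.93, 0.806 and 0.794 in NHD13 replicates 1 to 3. The groups overlapped, with the replicate 1 library highest in each.

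**Figure D5:**
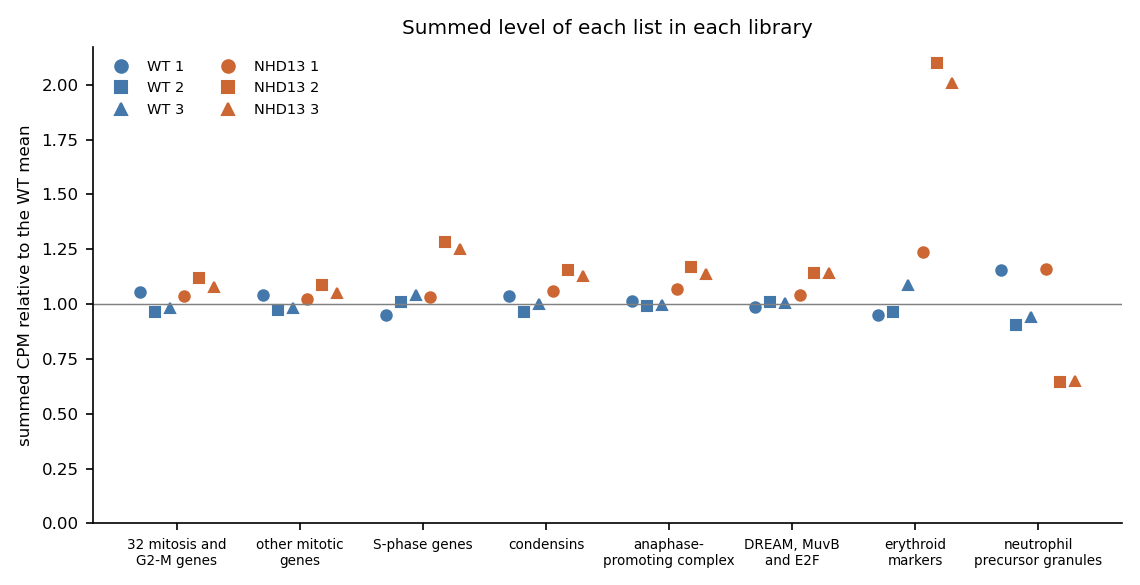
Summed CPM of each gene list in each library, divided by the WT mean of that list, with color for the group and marker shape for the replicate number. The 32 genes stay near 1 (NHD13 over WT 1.08), the S-phase genes (1.19) and erythroid markers (1.78) are highest in NHD13 replicates 2 and 3, and the precursor granule genes are highest in the replicate 1 libraries.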

How the data were processed

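Raw counts per gene were deposited for 3 WT and 3 NHD13 libraries. The submitters' processing notes name Bowtie2 2.2.1, HTSeq 0.5.4p3 and mm10 for the authors' counts, without annotation, strand setting or filters. Columns were matched to samples by group letters and replicate number.

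Genes were kept by filterByExpr (minimum count 10; 12013 of 17523) and scaled by TMM, which also scales the CPM values. The main test was the edgeR 4.0.16 quasi-likelihood F test (R 4.3.3), two-sided, with group as its only term, Benjamini-Hochberg adjustment over all tested genes and a threshold of 0.05. The 95% intervals use its degrees of freedom. Alternatives were DESeq2 1.42.0, limma 3.58.1 (voom), other scalings and filters, a replicate block, the Y-linked share as a covariate, and left-out libraries. The fits were tested on simulated data.

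The genes, lists and alternatives were chosen with earlier results of these data known. The text names all 32 genes and, of each other list, up to 4 genes per direction with the lowest p among those past the threshold. Remaining subunits of a complex, overlapping genes and single markers were named outside that rule. Positions and exon lengths are from GENCODE vM21 (GRCm38, that is mm10), and near-copies were sought with blastn 2.17.0. Of the 32 genes, 17 overlap another annotated gene, 13 of them one on the other strand.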

Additional observations from a re-analysis of the deposited data

How the results depend on the processing

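Leaving out 1 library gave 760 to 3012 genes higher and 957 to 2966 lower over the table (1799 and 1839 with all libraries), and 0 to 12 higher of the 32 mitotic genes. Their median log2 change was 0.085 to 0.15. Without replicate 1 of both groups, 3244 genes were higher and 3245 lower, and 19 of the 32 were higher (median 0.19). Under the Y-linked covariate 111 genes were higher and 175 lower, with 0 and 0 of the 32 and a median of 0.018. The cause was not tested. Upper-quartile scaling put the median log2 change of all tested genes at -0.04, with 1427 higher and 2132 lower.

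The genes whose log2 change turned sign were not past the threshold in the main test. With upper-quartile factors it was -0.037 for Top2a, -0.032 for Aurkb and -0.027 for Ckap2l, with the 5 CPM filter -0.029, -0.023 and -0.018, and with the Y-linked covariate -0.060, -0.16 and -0.065. Total counts gave -0.0010 for Top2a. The Y-linked covariate gave -0.038 for Bub1, -0.00034 for Bub1b and -0.015 for Cenpe. Without replicate 1 of both groups it was 0.020 for Cenpf, 0.0057 for Nusap1 and 0.025 for Ttk. With 1 library left out it ran from -0.026 to 0.025 for Top2a, -0.030 to 0.076 for Aurkb, -0.020 to 0.057 for Ckap2l, -0.050 to 0.00096 for Cenpf and -0.048 to 0.015 for Ttk.

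The groups share replicate numbers. With a replicate block, 4 higher and 1 lower of the 32 passed, Aurka added (edgeR adjusted p = 0.0471), and 23 S-phase genes were higher against 12. Over all tested genes, 2007 were higher and 2233 lower with the block, against 1799 and 1839 without it. Deviations of same-numbered libraries correlated at 0.249, 0.0632 and 0.175, and NHD13 replicate 2 correlated best with WT replicate 3 (0.149), so the numbers were not taken as pairs.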
